A study of Homo sapiens with 16 samples.

Results

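The simple epithelial keratins were followed here as a list of 7 genes, KRT7, KRT8, KRT80, KRT17, KRT18, KRT19 and KRT23, in pancreatic progenitors exposed to latrunculin B (LatB), an agent that depolymerizes actin. The genes were listed by name as members of the keratin family. Of the 7, 6 had transcripts among the 35810 genes of the deposited transcript tables. No transcript of KRT23 matched there, and its values were taken from the authors' normalized gene table. The cells were SA121-derived NGN3-GFP cells, a reporter line of human embryonic stem cells for the endocrine progenitor gene NEUROG3, taken to day 19 of pancreatic differentiation. The 16 libraries of poly(A) RNA fell into 6 groups: 3 libraries of control 0 h, 2 of control 24 h, and, with 0.5 µM LatB, 3 libraries each of 3, 6 and 24 h and 2 of 12 h. Cells of control 24 h had been given DMSO. Control 0 h is tagged DMSO in the labels but was taken before treatment according to the series text, so its exposure to the vehicle is uncertain. DMSO libraries matched to 3, 6 or 12 h were not used here, so elapsed time and drug cannot be told apart in comparisons with control 0 h. All groups share the line and the reporter allele, and nothing states that replicates were separate cultures, so p-values measure the spread between these samples, which may be technical.

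Keratins are the intermediate filament proteins of epithelia. A type I keratin pairs with a type II keratin, and neither forms filaments alone. KRT8 (type II) and KRT18 (type I) are the main pair of simple, single-layered epithelia, including the early pancreatic epithelium. KRT7 (type II) and KRT19 (type I) are best known from ducts. KRT17 (type I) is known from basal and injured epithelia, KRT23 is a type I keratin of simple epithelia and KRT80 is a type II keratin. Keratin filaments are anchored at desmosomes and are joined to actin and microtubules by large linker proteins such as plectin. On GRCh38, the type II genes lie on chromosome 12, with KRT80 at 52168996 to 52192014 (minus strand), KRT7 at 52232520 to 52252186 (plus) and KRT8 at 52897187 to 52949954 (minus). KRT18 is the type I gene that lies beside them, at 52948871 to 52952906 (plus). Its start overlaps the annotated start of KRT8 on the other strand. KRT23 (40922700 to 40937646), KRT19 (41523617 to 41528308) and KRT17 (41619442 to 41624842) lie on the minus strand of chromosome 17.

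Libraries held 23609727 to 33515398 estimated reads. The epithelial label was checked against EPCAM, which lay between 1120 and 1409 TPM (a level scaled for transcript length and to the same total in each library) in all libraries, and the pancreatic label against PDX1, between 109.7 and 173.0 TPM. The second 12 h library stood apart. Its 10 mesenchymal marker genes summed to 948 TPM, against 251 TPM in the other 12 h library and 184.6 to 418 TPM elsewhere. Its 5 measured intestinal markers summed to 59.95 TPM, against 97.8 to 176.2 TPM in the remaining libraries. Values without it are given beside the keratin tests and the list counts that use the 12 h group. In such bulk RNA, fewer cells of a type and less RNA per cell cannot be told apart.

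KRT8 was the most abundant of the keratins in the controls, and its RNA was lower at every LatB time. It stood at 2693, 2618 and 2601 TPM in the control 0 h libraries and at 2475 and 2694 TPM in those of control 24 h. It was 1858, 2033 and 1595 TPM after 3 h, 1463, 1356 and 1460 TPM after 6 h, 864 and 964 TPM after 12 h, and 1538, 1226 and 1347 TPM after 24 h. No LatB library reached the lowest control. The order of the groups was both controls, 3 h, 6 h, 24 h and 12 h, and the 2 controls overlapped, as did 6 h and 24 h.

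KRT18, the type I partner of KRT8, followed the same order with a deeper fall. It held 1572, 1528 and 1472 TPM at control 0 h and 1449 and 1573 TPM at control 24 h. Its levels were 1044, 1096 and 887 TPM at 3 h and 653, 687 and 689 TPM at 6 h. They were 399.7 and 408 TPM at 12 h and 720 (replicate 1), 632 and 667 TPM at 24 h. Again no LatB library overlapped the controls, while the libraries of 6 h and 24 h overlapped each other.

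KRT19 took another course. It stood at 717, 723 and 726 TPM at control 0 h and at 729 and 791 TPM at control 24 h. It was 650.5, 669 and 542 TPM at 3 h, below all controls, and then 951, 884 and 906 TPM at 6 h, 1035 and 932 TPM at 12 h and 925, 814 and 851 TPM at 24 h, above all controls. The libraries of 6 h overlapped those of 12 h and those of 24 h, while both 12 h libraries lay above the 24 h ones. At 12 h KRT19 was above KRT18 in both libraries, and above KRT8 in the first (1035 against 864 TPM) but not in the second (932 against 964 TPM).

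**Figure D1:**
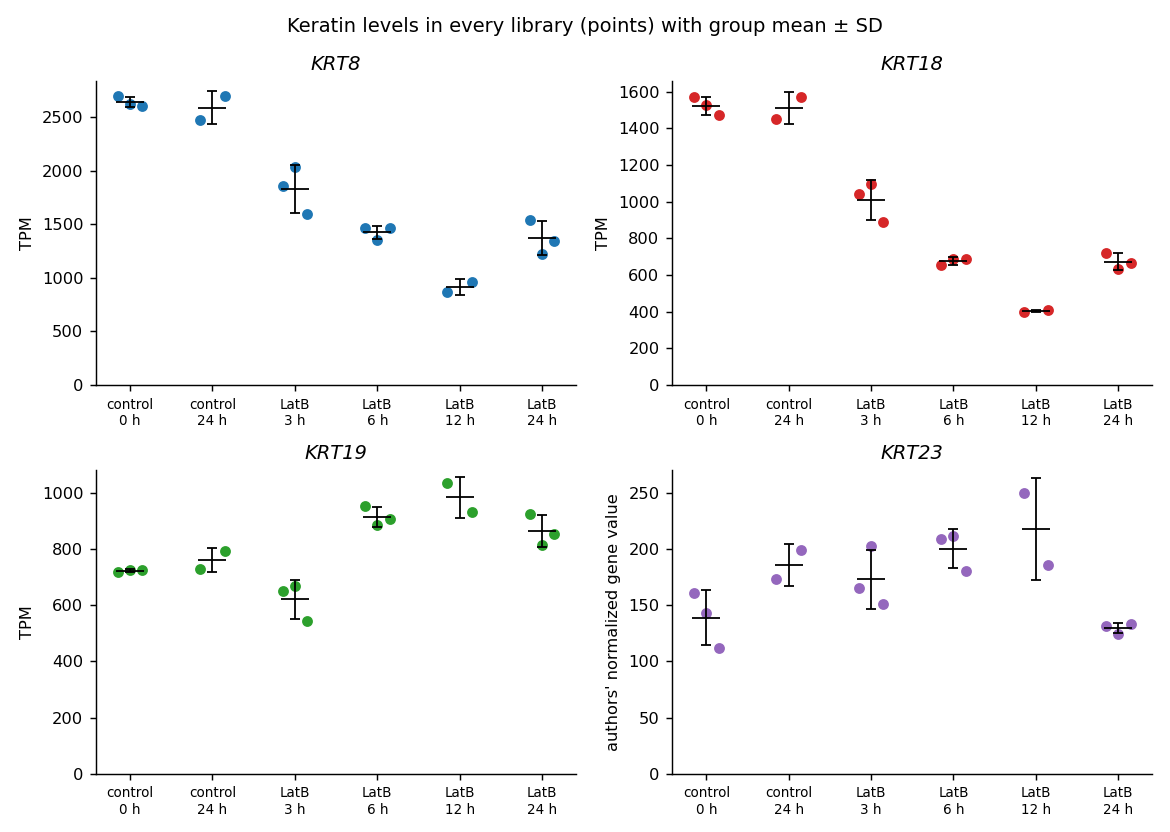
Levels of KRT8, KRT18 and KRT19 (TPM) and of KRT23 (authors' normalized gene value) on linear vertical axes from 0, by group along the horizontal axis; points are libraries and bars are the mean ± SD. KRT8 and KRT18 are lowest at 12 h, where KRT18 lies at 399.7 and 408 TPM, and KRT19 is above the controls from 6 h on.

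The question at 3, 6 and 12 h was how the keratins stood against the cells before treatment. Counts were fitted with edgeR's quasi-likelihood test over 16705 genes, with Benjamini-Hochberg adjustment, with 0.05 as the limit of the adjusted p for a call. Of the 7 genes, 5 passed the filter on low counts. At 3 h, 2 of these 5 were called, both lower, while 31.6% of all genes tested were called (16.8% higher and 14.7% lower). KRT8 fell by 0.41 on the log2 scale (SE 0.083, adjusted p = 0.00203) and KRT18 fell by 0.47 (SE 0.0701, adjusted p = 0.000205). KRT19 had a log2 change of -0.12 (SE 0.0816, adjusted p = 0.299) and was not called, nor in any of 30 alternative fits.

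At 6 h, 3 of the 5 were called, against 43.3% of all genes (22.9% higher and 20.4% lower). KRT8 fell by 0.75 (SE 0.0837, adjusted p = 1.26e-05) and KRT18 fell by 1.05 (SE 0.0708, adjusted p = 2.05e-07) on the log2 scale. KRT19 rose by 0.47 (SE 0.0818, adjusted p = 0.000478), which is 1.38-fold. At 12 h the same number, 3, was called, against 35.8% of all genes (19.1% higher and 16.8% lower). KRT8 fell by 1.46 (SE 0.098, adjusted p = 4.10e-07) and KRT18 fell by 1.88 (SE 0.0841, adjusted p = 1.74e-08), so that KRT18 was 3.68-fold lower than at control 0 h. KRT19 rose by 0.48 (SE 0.0904, adjusted p = 0.00116). Without the second 12 h library, the changes at 12 h were -1.46 for KRT8, -1.81 for KRT18 and 0.62 for KRT19, and without the first they were -1.47, -1.95 and 0.32, with adjusted p-values of at most 0.0149 in the edgeR test.

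The comparison at 24 h used the DMSO control of the same time. Of the 5 genes, 4 were called, against 40.7% of all genes (21.9% higher and 18.8% lower). KRT8 fell by 0.86 (SE 0.0919, adjusted p = 1.62e-05) and KRT18 fell by 1.10 (SE 0.0772, adjusted p = 6.78e-07) on the log2 scale, and both were called in all 30 alternative fits. KRT19 rose by 0.26 (SE 0.0918, adjusted p = 0.0378), a call that held in 17 of 30 alternative fits, with adjusted p from 0.00783 to 0.28. Leaving out control 24 h replicate 1 gave 0.19 with an edgeR adjusted p of 0.28. The fourth call was KRT17, at very few reads and let into the test partly by the control 24 h libraries themselves, as described below.

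Between the 2 controls, none of the 5 genes was called with edgeR (0 of 5, also 0 at an unadjusted p under 0.05), where 0.251% of all genes were called. DESeq2 and limma-trend called 0 as well. The log2 differences, 24 h minus 0 h, were -0.021 for KRT8 (SE 0.0931), -0.0028 for KRT18 (SE 0.0782) and 0.053 for KRT19 (SE 0.0911).

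**Figure D2:**
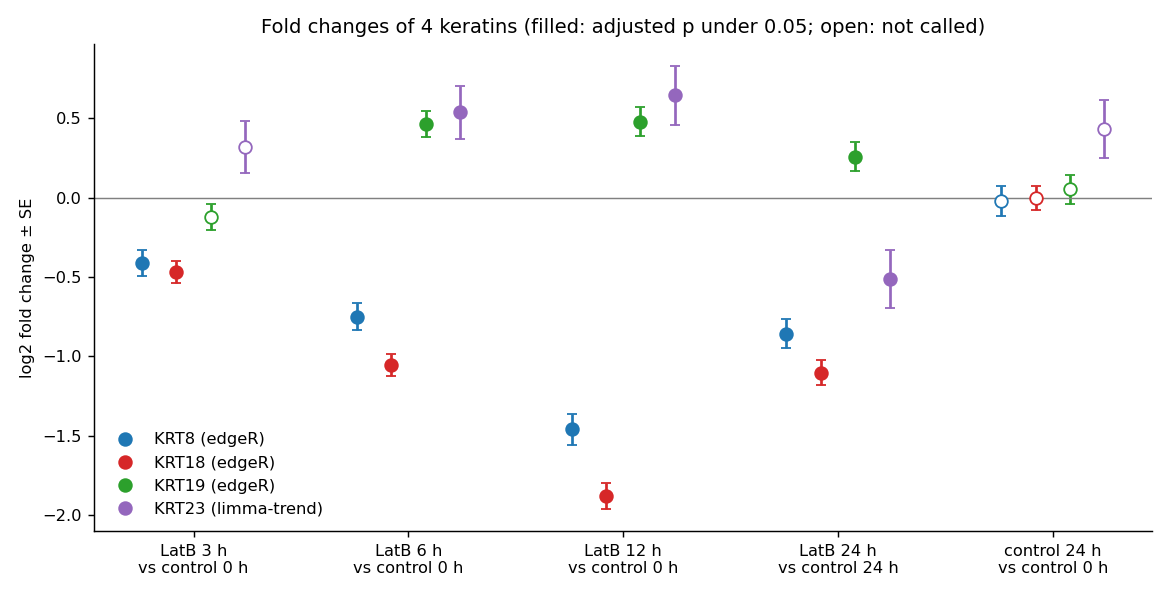
Log2 fold changes ± SE (vertical axis) in 5 comparisons (horizontal axis); filled points passed an adjusted p under 0.05 and open points did not. KRT18 lies below KRT8 at each LatB time, down to -1.88 at 12 h, and KRT19 lies above 0 from 6 h on.

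Steps between successive LatB times were tested in the same fit. From 3 to 6 h, 3 genes were called, against 22.2% of all genes: KRT8 fell by 0.34 (SE 0.0834, adjusted p = 0.0109), KRT18 fell by 0.58 (SE 0.0703, adjusted p = 9.69e-05) and KRT19 rose by 0.58 (SE 0.0819, adjusted p = 0.0003). Without LatB 3 h replicate 2 the step of KRT8 was -0.26 and was not called (edgeR adjusted p = 0.0516). From 6 to 12 h, 3 genes were called, against 29.0% of all genes: KRT8, KRT18 and KRT7, whose call rested on the second 12 h library, as described below. KRT8 fell by 0.71 (SE 0.0951, adjusted p = 0.000173) and KRT18 fell by 0.83 (SE 0.0805, adjusted p = 1.94e-05), while KRT19 changed by 0.014 (SE 0.0911, adjusted p = 0.933). Without the second 12 h library these steps were -0.71, -0.76 and 0.16, with edgeR adjusted p-values of 0.00192, 0.000297 and 0.275. From 12 to 24 h, 3 genes were called, against 11.7% of all genes, again KRT8, KRT18 and, resting on the second 12 h library, KRT7. KRT8 rose by 0.58 (SE 0.0947, adjusted p = 0.00319) and KRT18 rose by 0.77 (SE 0.0803, adjusted p = 0.000245), so both had risen above their lowest level but stayed below the control of 24 h. KRT19 changed by -0.17 (SE 0.0908, adjusted p = 0.253) and was not called. Without the second 12 h library the step of KRT19 was -0.31 and was called (edgeR adjusted p = 0.0497), a fall from the single remaining 12 h library, while those of KRT8 and KRT18 were 0.58 and 0.71 (edgeR adjusted p = 0.013 and 0.00112). With only the 12 h and 24 h libraries in the fit, 0 keratins were called in this step. The changes were of similar size for KRT8 (0.57, edgeR adjusted p = 0.197) and KRT18 (0.76, edgeR adjusted p = 0.158). Fewer libraries estimate the spread there, and no share of all genes stands beside this 0.

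The effect at 24 h, each against its own control, differed from the effect at 3 h for 3 of the 5 genes, against 27.9% of all genes. The difference, 24 h minus 3 h, was -0.45 for KRT8 (SE 0.125, adjusted p = 0.0166), -0.63 for KRT18 (SE 0.105, adjusted p = 0.000735) and 0.38 for KRT19 (SE 0.123, adjusted p = 0.0348). The KRT8 difference was called in 26 of 29 alternative fits, that of KRT18 in 29 of 29 and that of KRT19 in 20 of 29. The KRT8 difference was not called without control 24 h replicate 2 (-0.37, edgeR adjusted p = 0.082), and that of KRT19 was not called without control 24 h replicate 1 (0.31, edgeR adjusted p = 0.166).

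The balance among the keratins shifted with these changes. The summed TPM of the 6 measured genes ranged from 4654 to 5059 in the 5 control libraries, was 2299 and 2308 at 12 h, and lay between 2673 and 3184 at 24 h. KRT8 held 54.0 ± 0.221% of this sum (SD, n = 3) at control 0 h and 39.7 ± 2.98% (n = 2) at 12 h. KRT18 held 31.2 ± 0.466% and 17.5 ± 0.213%. The share of KRT19 was 14.8 ± 0.371% at control 0 h, 15.6 ± 0.0194% (n = 2) at control 24 h, 17.9 ± 0.35% at 3 h and 30.3 ± 0.682% at 6 h. It was 42.7 ± 3.26% (n = 2) at 12 h and 29.7 ± 0.703% at 24 h. KRT19 was therefore the most abundant of these keratins in the first 12 h library, at 45.0% of the sum, and ranked just below KRT8 in the second, at 40.4% against 41.8%.

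The type I genes KRT18 and KRT19 changed places. The ratio of KRT19 to KRT18 TPM was 0.456 to 0.503 in the controls, 0.61 to 0.623 at 3 h and 1.29 to 1.46 at 6 h. It was 2.59 and 2.28 at 12 h and 1.28 to 1.29 at 24 h. Every LatB library of 6 h or later held more KRT19 than KRT18 per length, and every control and 3 h library held less.

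KRT8 fell less than its partner KRT18. Their TPM ratio was 1.71, 1.71 and 1.77 at control 0 h, 1.71 in both libraries of control 24 h, 1.78 to 1.86 at 3 h and 1.97 to 2.24 at 6 h. At 12 h it was 2.16 and 2.36, and at 24 h 1.94 to 2.13. All 11 LatB libraries lay above all 5 controls. The mean log2 ratio was 1.02 ± 0.132 (SD, n = 11) with LatB and 0.785 ± 0.0205 (n = 5) in the controls, a difference of 0.23 (exact permutation test over 4368 arrangements, two-sided, p = 0.00275). The ratio of summed type II to summed type I TPM moved the other way. It was 1.14 to 1.18 in the controls, 1.10 to 1.15 at 3 h, 0.863 to 0.916 at 6 h, 0.603 and 0.721 at 12 h and 0.848 to 0.935 at 24 h. KRT23 has no TPM and is not in this ratio. The mean log2 difference, LatB minus control, was -0.37 (n = 11 and 5, exact permutation test, two-sided, p = 0.0071), and the 3 h libraries overlapped the controls. Both tests pool LatB times that differ from each other. They also shuffle single libraries although these come in groups, so their p-values may be too small. Without the second 12 h library the differences were 0.21 and -0.34. Within the 24 h libraries alone (3 against 2), where 0.1 is the smallest p the design allows, the differences were 0.25 and -0.36 (exact permutation p = 0.1 each).

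**Figure D3:**
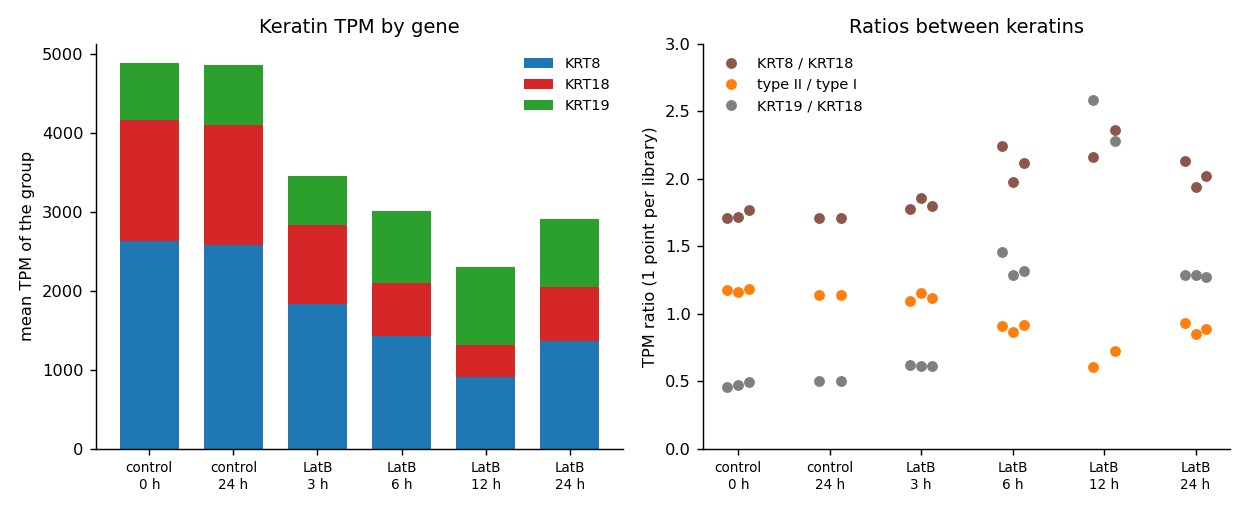
Left, mean TPM of KRT8, KRT18 and KRT19 by group, stacked from 0; right, TPM ratios on a linear axis from 0 with 1 point per library. The KRT19 to KRT18 ratio passes 1 from 6 h on and reaches 2.59 at 12 h, where the type II to type I ratio is lowest at 0.603.

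Most KRT8 signal came from 1 transcript. KRT8-201, a protein-coding transcript, held 77.4% of KRT8 TPM at control 0 h, 77.8% at control 24 h, 76.2% at 3 h, 79.9% at 6 h, 80.9% at 12 h and 76.3% at 24 h. The next was KRT8-211, annotated as retaining an intron. Its share was 17.4% at control 0 h and 16.3% at control 24 h, then 15.3%, 15.5%, 12.4% and 13.8% at 3, 6, 12 and 24 h. Of 18 annotated KRT8 transcripts 17 were measured, and none of these carries the annotation's reference tag (MANE Select). These shares therefore hold among the measured transcripts only. KRT18-201 held 97.8% of KRT18 TPM and KRT19-201 held 95.8% of KRT19 TPM on average, so these genes were measured mainly through a single form. KRT8 and KRT18 have many processed pseudogenes. Of the reads given to KRT8 and its 51 measured pseudogenes together, the pseudogenes held 0.257% to 0.456%, and for the 65 of KRT18 the share was 0.245% to 0.742%. Adding them changed no call of either gene. Use of strand in the counting is not stated, so reads in the short overlap of KRT8 and KRT18 cannot be assigned with certainty.

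KRT23 was read from the authors' normalized gene values, which are not on the TPM scale. It was 161, 143 and 112 at control 0 h and 173 and 199 at control 24 h. It was 166, 202 and 151 at 3 h, 209, 212 and 180.2 at 6 h, 249.8 and 185 at 12 h, and 131, 124 and 133 at 24 h. The 24 h LatB libraries lay below both libraries of control 24 h, and those of 6 h and 12 h lay above control 0 h. The controls themselves were apart, with control 24 h above control 0 h in every library. The 24 h LatB libraries lay within the range of control 0 h, and those of 6 h and 12 h overlapped control 24 h. KRT23 was not tested against the other control. Limma-trend on log2(value + 1), a test added after the data were seen, was run over 16310 genes.

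KRT23 was not called at 3 h (log2 change 0.32, SE 0.165, limma-trend adjusted p = 0.184; 24.1% of genes called). It rose by 0.54 at 6 h (SE 0.165, adjusted p = 0.0222; 34.6% called) and by 0.64 at 12 h (SE 0.184, adjusted p = 0.0201; 26.5% called), both against control 0 h. It fell by 0.51 at 24 h against control 24 h (SE 0.184, adjusted p = 0.0483; 31.6% called), and fell by 0.73 from 12 to 24 h (SE 0.184, adjusted p = 0.0363; 5.82% called). The difference of effects, 24 h minus 3 h, was -0.83 (SE 0.247, adjusted p = 0.0319; 19.2% called). Control 24 h minus control 0 h was 0.43 (SE 0.184, adjusted p = 0.609; 0.049% called). With each of the 16 libraries left out in turn, KRT23 was called in 13 fits at 6 h, 14 at 12 h, 6 at 24 h, 10 for the 12 to 24 h step and 9 for the difference of effects. Without control 0 h replicate 3 the rises were 0.39 and 0.50 with limma-trend adjusted p-values of 0.103 and 0.0749. Without control 24 h replicate 2 the fall at 24 h was -0.41 (limma-trend adjusted p = 0.233) and the difference of effects -0.73 (limma-trend adjusted p = 0.114). Without the second 12 h library the rise at 12 h was 0.86 and the fall from 12 to 24 h was -0.94 (limma-trend adjusted p = 0.0132 and 0.0273), and without the first they were 0.43 and -0.51 and were not called (limma-trend adjusted p = 0.166 and 0.148).

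The other 3 keratins were near the limit of detection. KRT7, the usual type II keratin of ducts, had 25, 40 and 22 reads at control 0 h, 22 and 38 at control 24 h, 29, 27 and 34 at 3 h and 25, 16 and 11 at 6 h. It had 21 and 75 reads at 12 h and 19, 23 and 18 at 24 h. Its level was 0.371 to 2.39 TPM across the libraries. It was called between 6 and 12 h, where it rose by 1.37 (SE 0.397, adjusted p = 0.0205), and between 12 and 24 h, where it fell by 1.42 (SE 0.393, adjusted p = 0.0351). Both calls rested on the second 12 h library. Without it the changes were 0.44 and -0.49, with edgeR adjusted p-values of 0.533 and 0.522. KRT7 was not called at any LatB time against its control in the fit of all libraries. At 12 h its log2 change was 1.21 without the first 12 h library (edgeR adjusted p = 0.0181, called) and -0.25 without the second (edgeR adjusted p = 0.696).

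KRT17 had 1, 7 and 10 reads at control 0 h and 17 and 14 at control 24 h. It had 7, 1 and 0 reads at 3 h, 3, 0 and 0 at 6 h, 0 and 23 at 12 h, and 0, 0 and 1 at 24 h. The 23 reads were in the second 12 h library. It reached 10 reads in 4 of the 16 libraries, those of control 24 h among them, and entered the test through these. The call at 24 h (edgeR adjusted p = 0.0235) thus set 1 read in 3 libraries against 31 in 2, a ratio of 0.0216 per sequenced read, with an exact 95% interval of 0.000529 to 0.129 that covers counting error only. It was called in 21 of 28 alternative fits. The control 24 h libraries both let the gene into the test and were compared in it. Neither the call nor this count can therefore stand as support for a fall. Leaving out either control 24 h library, LatB 24 h replicate 1 or LatB 24 h replicate 2 ended the call, with edgeR adjusted p-values of 0.0518 to 0.0917, as did control 0 h as the reference (edgeR adjusted p = 0.0795) and limma-trend on TPM. KRT80 had 0 to 5 reads per library and did not pass the filter. At 24 h it had 8 reads in 3 LatB libraries against 2 in 2 controls, a ratio of 2.67 per sequenced read with an exact 95% counting interval of 0.533 to 25.8. Fitted with no filter it was not called at 24 h (edgeR adjusted p = 0.591), and no difference was detectable at this depth.

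**Figure D4:**
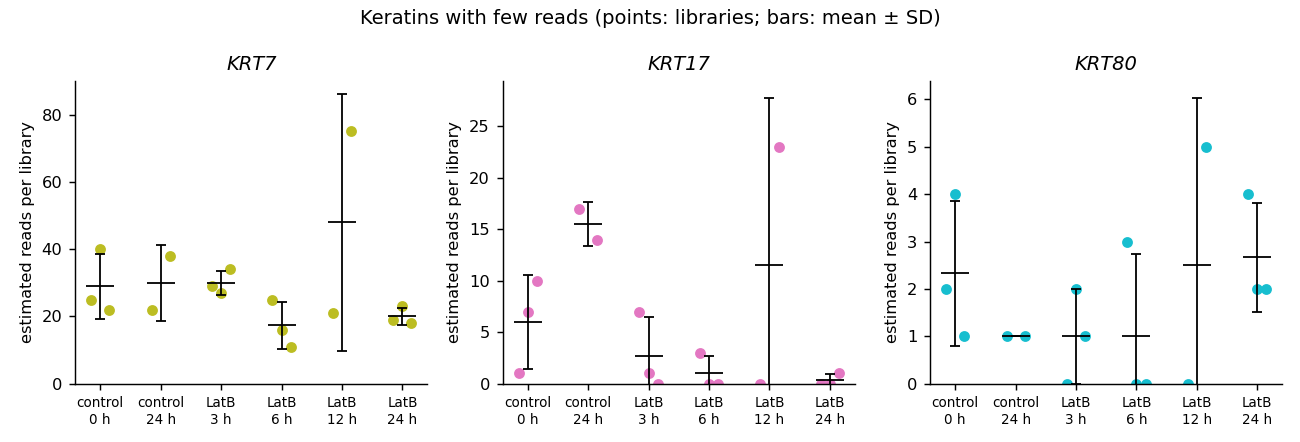
Estimated reads per library (vertical axis, linear from 0) for KRT7, KRT17 and KRT80 by group; points are libraries and bars are the mean ± SD. The highest points for all 3 genes are in the second 12 h library, with 75, 23 and 5 reads.

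By likeness of log2 CPM over the 16 libraries, the 3 nearest of 10509 protein-coding genes to KRT8 were HABP4 (Pearson r = 0.992), the annexin ANXA3 (0.978) and the exocyst subunit EXOC6 (0.977). Those nearest to KRT18 were HABP4 (0.989), ANXA3 (0.987) and PKP4 (0.984), a plakophilin of cell junctions. ANXA3 stood at 195.5 CPM in control 0 h, 33.8 CPM at 12 h and 79.8 CPM at 24 h, and PKP4 at 119.9, 46.4 and 65.2 CPM. Nearest to KRT19 were KIAA1549 (0.96), the transcription factor gene GATA5 (0.955) and DACT2 (0.954). GATA5 stood at 6.70 CPM in control 0 h, 17.9 CPM at 6 h and 12.2 CPM at 24 h. For KRT7 they were CELSR1 (0.889), ADAMTS12 (0.857) and PABIR3 (0.853), and for KRT17 MAPRE3 (0.897), SYTL1 (0.857) and CFAP46 (0.856), with the few reads of both genes behind them. The libraries share 6 groups, so these values describe group patterns and carry no p.

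Among 42 further protein-coding keratin genes with matched transcripts, 20 were at 0 in all libraries and 4 passed the filter. Keratin genes without a matched transcript, KRT20 among them, were not measured here. KRT10 (type I) was the only one of them above 5 TPM, between 78.3 and 110 TPM. It had no call at 3 and 6 h, rose by 0.26 at 12 h (SE 0.0718, adjusted p = 0.00849; 0.32 without the second 12 h library) and rose by 0.34 at 24 h (edgeR adjusted p = 0.00154). KRT15 fell by 0.82 at 6 h. KRT4, a type II keratin of stratified mucosa, and KRT13, its type I partner, passed the filter through the controls and 3 h alone, so only their reads are given. KRT4 had 9, 16 and 14 reads at control 0 h and 26 and 30 at control 24 h, and at most 7 in any library of 6, 12 or 24 h of LatB. KRT13 had 15, 17 and 8 reads at control 0 h and 12 and 13 at control 24 h, and at most 9 in those LatB libraries.

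Of 14 desmosome genes, 10 were tested. At 3 h 2 were higher and 2 lower, where 16.8% of all genes were higher and 14.7% lower. At 6 h 4 were higher and 2 lower (22.9% and 20.4% of all genes), at 12 h 1 and 4 (19.1% and 16.8%), and at 24 h 0 and 6 (21.9% and 18.8%). The median log2 changes were 0.087, 0.096, -0.25 and -0.40, against medians between -0.01 and 0.011 over all genes. Without the second 12 h library, 1 was higher and 3 were lower at 12 h, with 16.1% of all genes higher and 14.5% lower. PKP4 was called lower in these 4 comparisons, with log2 changes of -0.24, -0.91, -1.37 and -1.03, and so was PKP2, another plakophilin, with -0.78, -0.84, -0.72 and -0.59. The cadherin gene DSC2 rose by 0.51 and 0.79 at 3 and 6 h and fell by 0.23 at 24 h. DSP, desmoplakin, which anchors keratin at the junction, fell by 0.51 at 12 h and fell by 0.58 at 24 h.

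Of 11 genes for linkers and keratin organizers, 9 were tested. The counts higher and lower were 1 and 3 at 3 h, 1 and 4 at 6 h, 2 and 3 at 12 h (1 and 3 without the second 12 h library) and 0 and 2 at 24 h. That is 4, 5, 5 and 2 of 9 called in either direction, beside 31.6%, 43.3%, 35.8% and 40.7% of all genes. The medians were -0.22, -0.34, -0.18 and -0.18. DST, which makes the linker dystonin, rose by 0.76 and 0.95 at 3 and 6 h. Its mean level was 223.9 TPM at 12 h, beside 228.3 TPM at control 0 h. At 24 h it was 151.6 TPM, beside 193.8 TPM at control 24 h. EPPK1, epiplakin, was called lower at 3, 6 and 12 h (-0.72, -0.75 and -0.57), and PLEC, plectin, at 3 and 6 h (-0.45 and -0.34). FBF1 fell by 0.85 at 6 h and fell by 0.41 at 24 h.

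Among 13 other intermediate filament genes, 11 were tested. Counts higher and lower were 0 and 2 at 3 h, 1 and 2 at 6 h, 1 and 0 at 12 h, also without the second 12 h library, and 4 and 1 at 24 h. The 2, 3, 1 and 5 of 11 called in either direction stand beside the same 31.6%, 43.3%, 35.8% and 40.7% of all genes. The medians were -0.095, -0.036, 0.18 (-0.067 without the second 12 h library) and 0.21. NES, nestin, fell by 0.84 at 3 h and fell by 0.78 at 6 h. The neurofilament gene NEFL rose by 1.22 at 6 h and by 1.80 at 24 h, and NEFH rose by 1.24 at 24 h. The lamin gene LMNB1 fell by 0.37 at 3 h and rose by 0.69 at 24 h. VIM, vimentin, was not called at any LatB time. For control 24 h against control 0 h, edgeR made 0 calls in all 4 lists. At an unadjusted p under 0.05 there were 0 of the keratins, 1 desmosome gene, 2 linker genes and 4 other filament genes. Over all genes it was 1415 of 16705. Mean TPM at control 0 h and control 24 h was 8.25 and 4.70 for NEFL, 58.3 and 44.8 for LMNB1, and 0.907 and 0.901 for NEFH. The rises of NEFL and LMNB1 at 24 h were thus set against a lower control than that of 0 h.

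**Figure D5:**
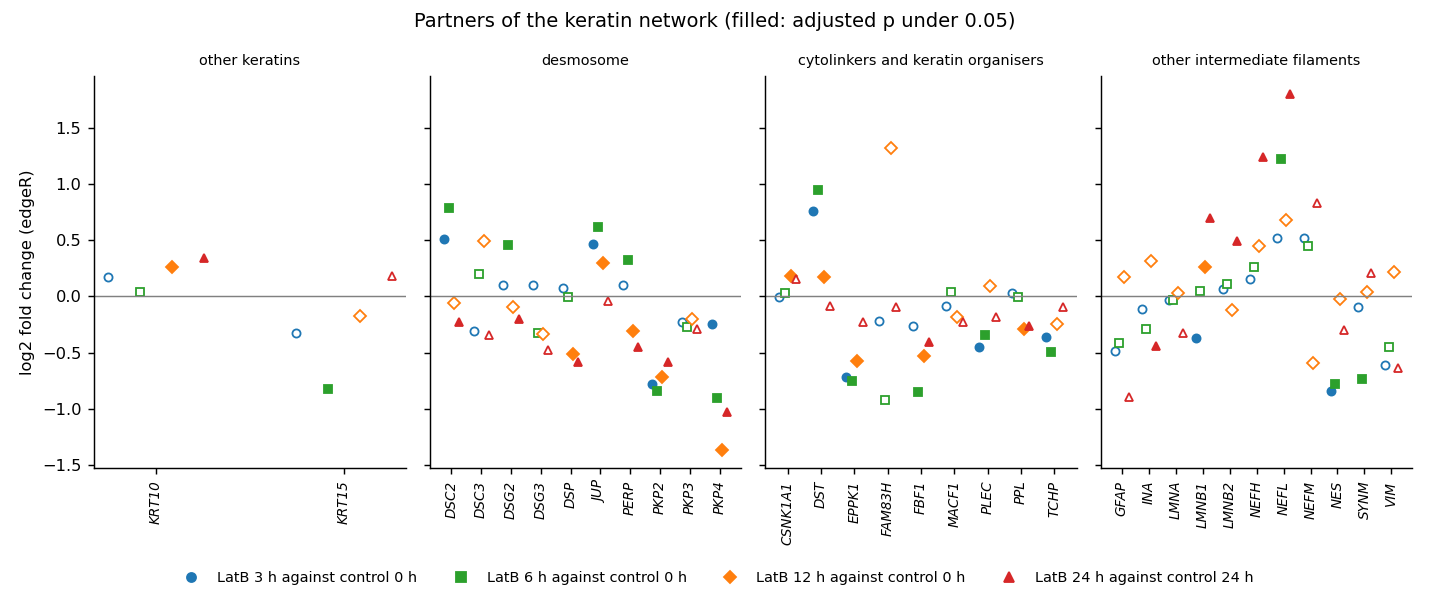
Log2 fold changes (vertical axis) of the tested genes of 4 lists, with colors and shapes for the 4 LatB comparisons; filled points passed an adjusted p under 0.05, and KRT4 and KRT13 are left out for their few reads. KRT10 lies above 0 and is filled at 12 h and 24 h, and in the desmosome panel PKP4 and PKP2 are filled and below 0 in all 4 comparisons.

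Marker lists of the cell types that such cultures can hold moved in part with the keratins, and their part in the keratin results was not tested. The 9 epithelial markers other than keratins summed to 3152 to 3200 TPM at control 0 h, 3209 to 3344 at control 24 h, 2978 to 3386 at 3 h, 3242 to 3519 at 6 h, 2788 to 2903 at 12 h and 2750.2 to 2992 at 24 h, a narrower range than that of KRT8. EPCAM and CLDN6 weighed most in this sum, with means of 1191 and 1065 TPM at control 0 h. The mean of CLDN4 went from 155.1 TPM at control 0 h to 66.7 TPM at 12 h. At 12 h, 0 of the 9 were higher, 5 lower and 4 not called, beside 19.1% and 16.8% of all genes. Without the second 12 h library, 0 were higher and 4 lower (16.1% and 14.5%). At 24 h, 1 was higher and 5 were lower, where 21.9% of all genes were higher and 18.8% lower. The 10 duct markers summed to 1635 to 1701 TPM at control 0 h, 988 to 1310 TPM at 12 h and 1115 to 1219 TPM at 24 h, where 0 were higher and 4 lower. The 11 progenitor markers summed to 1764 to 2178 TPM in the controls and 1990.2 to 2605 TPM at 24 h (5 higher, 3 lower). The 12 endocrine markers went from 101.7 to 120.6 TPM at control 24 h to 140.2 to 499 TPM at 24 h of LatB (7 higher, 0 lower). The 5 measured intestinal markers were 164.5 to 176.2 TPM at control 24 h and 107.1 to 129.7 TPM at 24 h of LatB (1 higher and 1 lower of 3 tested). Of the 10 mesenchymal markers 0 were called at 24 h with edgeR, and 1 had an unadjusted p under 0.05. The 6 endothelial markers summed to at most 12.4 TPM, in the second 12 h library, against 3.17 TPM in the first. KDR made up most of it, at up to 11.1 TPM, and CDH5 was at most 0.43 TPM. Of the 4 tested, 1 was higher at 12 h, and 0 without the second 12 h library. At 24 h 0 of 4 were called with edgeR (0 at an unadjusted p under 0.05). The 5 pluripotency markers summed to 173.0 to 192.7 TPM in the controls and 108.2 to 115.6 TPM at 24 h (1 higher, 1 lower), nearly all of it LIN28A, with NANOG at most 0.265 TPM. The 9 markers of stratified epithelium, 8 of which are among the other keratins, summed to 85.7 to 88.8 TPM in the controls and 106.9 to 111.6 TPM at 24 h, nearly all of it KRT10. In that list KRT14 was at 0 in every library and TP63 was at most 0.296 TPM.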

How the data were processed

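Poly(A) RNA of 16 libraries had been sequenced. The authors deposited a transcript table per library in the format of Salmon (version 1.3.0 in the submitters' processing notes, with hg38), which holds estimated counts, TPM and effective lengths for 177456 transcripts. The study's methods describe STAR and gene counts instead, so upstream settings otherwise stay unknown. The authors also deposited a gene table whose 16 per-library columns hold values normalized by DESeq2 size factors (a signal scaled between libraries); its fold changes and p-values were not used. Each of its 16 columns was closest to its own library among the counts, and 0 per-sample columns were left unmapped.

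Transcripts were joined to genes of GENCODE release 44 by identifier, which matched 165533 of them and left out 2.92% to 3.17% of reads. KRT23 had none of its 9 annotated transcripts there, since the authors' table lists it under an alternate-sequence identifier. Estimated counts were summed per gene and rounded. The main test was edgeR 4.0.16 (quasi-likelihood, two-sided, R 4.3.3) on all 16 libraries in 6 groups, with TMM scaling and filterByExpr by group. The 9 comparisons were each adjusted over 16705 genes. SE is the size of the log2 change divided by the square root of F. CPM is counts scaled to the TMM-adjusted library size. KRT23 was tested with limma-trend 3.58.1 on genes with a mean of at least 10 in the authors' table. Ratios were compared by an exact permutation test in scipy 1.17.1.

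The scripts were tested on simulated counts. For 3 h against control 0 h, 72.5% of the genes changed by 1 log2 unit were recovered by edgeR among 16484 genes, with 3.33% false calls. Depth sets the precision: counting error is small for KRT8 (25045 to 99453 reads) and large for KRT17 (0 to 23 reads). Intervals cover counting error only.

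Named genes were all 7 keratins in every comparison, the 3 most alike genes of each tested keratin (mean log2 CPM of at least 3), and, from 4 lists of partners, up to 4 examples with the largest changes among those called; further members of the lists were chosen after their values were seen. The 9 lists of cell type markers were pancreatic progenitor, epithelium, duct, endocrine, stratified epithelium, intestine, mesenchyme, endothelium and pluripotent. The keratins and lists were chosen with earlier results of these data known. Alternatives were DESeq2 1.42.0, other scalings, filters and thresholds, limma-trend on TPM (log2, with 1 or 0.1 added), pseudogene reads added, transcripts of the same version only, a length offset, a replicate block, fewer groups, the other control, and each library left out. List counts without the second 12 h library were added after the data were seen. Protein and promoter sequences were not used here.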

Additional observations from a re-analysis of the deposited data

Results flagged for a closer look

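For 4 keratins the effect of LatB at 24 h differed from its effect at 3 h by a test of the difference itself, which called 27.9% of all genes with edgeR and 19.2% in the authors' table. The difference, 24 h minus 3 h on the log2 scale, was -0.45 for KRT8, -0.63 for KRT18 and 0.38 for KRT19 with edgeR, and -0.83 for KRT23 with limma-trend on the authors' normalized values. The call held in 26 of 29 alternative fits for KRT8, 29 of 29 for KRT18 and 20 of 29 for KRT19, and in 9 of 16 fits with a library left out for KRT23. KRT8 and KRT18 had fallen further by 24 h, while KRT19 was not called at 3 h and was higher at 24 h. KRT23 was not called at 3 h and was lower at 24 h than in control 24 h, though within the range of control 0 h. The controls differ between the times, since 3 h was set against control 0 h and 24 h against control 24 h, and KRT23 was higher in both libraries of control 24 h than in all of control 0 h. Dixon's test for a single deviating sample was not run, since it was set for larger groups than these of 2 or 3 libraries.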

How the results depend on the processing

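With the added demand of an absolute log2 change of at least 1, the number of keratins called was 0 at 3 h, 1 at 6 h, 2 at 24 h, 0 from 3 to 6 h, 1 from 6 to 12 h, 1 from 12 to 24 h and 0 for the difference of effects, beside 3.68%, 6.18%, 7.26%, 1.78%, 4.65%, 2.33% and 5.75% of all genes. The 2 at 24 h were KRT18 and the sparsely read KRT17, and KRT7 was the 1 in both steps that use 12 h. An adjusted p under 0.01 left 2 at 24 h and 1 for the difference (26.8% and 15.6% of all genes). Limma-trend on either TPM scale called 2 at 24 h (28.7% and 28.4%), and leaving out each library gave 2 to 4 there, with 2 called without control 24 h replicate 1 or LatB 24 h replicate 1 (23.5% and 38.4%). With the fit limited to the 12 h and 24 h groups, 0 keratins were called from 12 to 24 h, where fewer libraries estimate the spread. That 0 has no share of all genes beside it, so it is no result about the keratins. Within 24 h alone the log2 ratios differed by 0.25 (KRT8 to KRT18) and -0.36 (type II to type I), with p = 0.1 in the exact permutation test, the smallest this design gives. Leaving out each library moved the differences of 11 LatB against 5 control libraries between 0.21 and 0.25 and between -0.40 and -0.31. The replicate numbers did not pair the samples (correlations of deviations of -0.24 to 0.12 over 36 same-numbered pairs), and with a replicate block 2 keratins were called from 12 to 24 h and 4 at 24 h (6.54% and 35.9% of all genes). No other count moved by over 1.5 times, and no change called in the main tests reversed its sign under the alternatives run. Counted over pairings of a comparison with a setting, calls of single keratins were lost in 103. These were 29 for KRT19, 28 for KRT23, 18 for KRT7, 14 for KRT8, 8 for KRT17 and 6 for KRT18. Stricter thresholds on the same fit are among them. Those of KRT23 come only from fits with a library left out, so its number cannot be set against the others. Calls were gained in 4 such pairings, each without 1 of the 12 h libraries: KRT7 at 12 h, KRT17 from 6 to 12 h and from 12 to 24 h, and KRT19 from 12 to 24 h. Without scaling, the median of all genes shifted by -0.10 at 6 h and by 0.11 from 6 to 12 h. The authors' table, added after seeing the data, called 2, 4, 4 and 3 keratins at 3, 6, 12 and 24 h, with KRT23 among those tested. Of the 16310 genes tested in that table, 24.1%, 34.6%, 26.5% and 31.6% were called at these times. For KRT7, KRT17 and KRT80 depth was the limit.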
